A study of Homo sapiens with 12 samples.

Results

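The genes described here are the 8 sensors and adaptors of foreign or misplaced nucleic acid taken by symbol: DDX58, IFIH1, DHX58, MAVS, TLR3, MB21D1, TMEM173 and ZBP1. All 8 of these 8 symbols were found among the 58721 genes of the deposited count table, and the rule that names them uses no measured value. RNA sequencing was carried out on LAD2, an established human mast cell line, and on HT-29, an established human colorectal cancer cell line. The groups were LAD2 after 12 hours of direct coculture with HT-29, LAD2 grown alone, HT-29 after 12 hours of direct coculture with LAD2, and HT-29 grown alone. No gene was altered and no ligand or infection is named in the labels, and each cell type is represented by a single established line, not by primary cells. LAD2 was kept in SP34 medium and HT-29 in McCoy 5A medium with serum, and RNA was taken with a micro column kit from LAD2 and a mini column kit from HT-29, so line, medium and kit cannot be told apart in any contrast between the lines.

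Each group has 3 columns of counts, but the 3 columns of LAD2 coculture were identical in every gene and were counted as 1 library, which left 10 distinct libraries. Total counts lay between 17.2 M and 34.1 M per library (M, 1e6 counts), and a count of 0 allows up to 3 counts, or 0.0879 to 0.174 counts per 1e6 counts (CPM), where intervals and floors cover counting error only. The labels do not say whether replicates were separate cultures, so the p-values speak only of the spread among these libraries, which may be technical. The 26 mast cell markers summed to 26436.3 CPM in LAD2 coculture, 26781.7 to 27218.1 CPM in LAD2 alone, 365.9 to 402.1 CPM in HT-29 coculture and 66.7 to 68.4 CPM in HT-29 alone, where 14 of them were at 0. The 26 epithelial markers summed to 1876.7 CPM in LAD2 coculture, 926.9 to 968.4 CPM in LAD2 alone, where 11 of them were at 0, 16027.0 to 16219.2 CPM in HT-29 coculture and 15748.5 to 16325.1 CPM in HT-29 alone. By these sums the labelled lines carried their own markers, but not every marker followed its line. The mast cell marker ALOX5 was higher in HT-29 alone (20.4 CPM) than in LAD2 alone (0.0923 CPM). The epithelial marker JUP was higher in LAD2 alone (584.0 CPM) than in HT-29 alone (472.1 CPM). Every other listed marker was higher in its own line, although KRT19 (234.9 CPM) and SPINT1 (122.6 CPM) were also well expressed in LAD2 alone. Each coculture library also held RNA of the other line. Its share was an estimated 5.26% of the LAD2 coculture library and 1.11% ± 0.0737 (SD, n = 3) of the HT-29 coculture libraries. The labels do not say how the lines were parted before extraction, and in bulk RNA fewer cells of a type and less RNA per cell cannot be told apart.

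Cells detect viral or misplaced nucleic acid through proteins that are ready before infection. RIG-I (DDX58) and MDA5 (IFIH1) are helicases that bind double-stranded RNA in the cytosol and signal through MAVS, an adaptor on mitochondria, while LGP2 (DHX58) binds RNA without the signalling domains of the other helicases and modulates them. cGAS (MB21D1) binds double-stranded DNA and makes a cyclic dinucleotide that activates STING (TMEM173) on the endoplasmic reticulum. TLR3 senses double-stranded RNA in endosomes rather than in the cytosol, and ZBP1 binds left-handed nucleic acid and can start cell death. The branches converge on kinases that activate interferon regulatory factors. Several of these genes, DDX58, IFIH1 and DHX58 among them, are known in human cells to be interferon-stimulated themselves, and mast cells are known to answer viral RNA with cytokines.

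Interferon-stimulated genes often carry repeats of GAAA near their start, so the start regions of members were read from RefSeq (GRCh38.p14), where 4 of the 8 members matched. Each printed region runs from 250 bases before to 50 bases after the gene start, in the sense of the gene, where the start is that of RefSeq. It lies downstream of the GENCODE start used for the gene coordinates given with each gene, by 19 bases for IFIH1, 128 bases for DDX58 and 4 bases for TLR3. IFIH1 and DDX58 are shown because both rose in LAD2 coculture, and TLR3 because it stayed near the limit of detection and its region holds a match. Capitals mark matches, on either strand, to GAAANNGAAA, GAAANGAAA or GAAANNNGAAA, where N is any base. The IFIH1 region lies at chr2:162318635-162318934 on the minus strand, the DDX58 region at chr9:32526147-32526446 on the minus strand and the TLR3 region at chr4:186068906-186069205 on the plus strand.
IFIH1: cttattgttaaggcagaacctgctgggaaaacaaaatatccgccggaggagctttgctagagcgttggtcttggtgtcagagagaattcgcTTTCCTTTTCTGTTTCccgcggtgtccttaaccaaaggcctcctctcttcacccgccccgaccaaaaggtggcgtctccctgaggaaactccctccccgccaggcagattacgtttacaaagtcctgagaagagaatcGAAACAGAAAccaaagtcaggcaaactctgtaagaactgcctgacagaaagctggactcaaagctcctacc
DDX58: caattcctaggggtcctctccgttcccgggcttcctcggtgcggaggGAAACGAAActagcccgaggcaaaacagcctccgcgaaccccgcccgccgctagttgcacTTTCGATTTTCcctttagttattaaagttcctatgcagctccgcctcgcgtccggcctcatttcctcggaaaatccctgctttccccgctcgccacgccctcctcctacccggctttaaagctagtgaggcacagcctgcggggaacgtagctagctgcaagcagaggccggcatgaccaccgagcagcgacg
TLR3: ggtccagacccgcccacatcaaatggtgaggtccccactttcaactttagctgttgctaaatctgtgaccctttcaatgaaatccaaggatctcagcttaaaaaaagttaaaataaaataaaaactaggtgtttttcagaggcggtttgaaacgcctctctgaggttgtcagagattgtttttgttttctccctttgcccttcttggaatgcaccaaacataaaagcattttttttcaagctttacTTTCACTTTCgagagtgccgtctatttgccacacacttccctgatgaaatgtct

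The IFIH1 region held 3 matches to GAAANNGAAA, of which 1 overlaps its neighbour. They lay at -159 to -150, -153 to -144 and -21 to -12, counted with the gene start as 0. The TLR3 region held 1 match, across the start. The DDX58 region held none at that spacing, but 1 match to GAAANGAAA at -203 to -195 and 1 to GAAANNNGAAA at -143 to -133. The MAVS region held none of the 3 motifs. Among 35116 promoters of the same length, 3.57% held GAAANNGAAA, 3.12% held GAAANGAAA and 2.86% held GAAANNNGAAA. A match is a description of the letters and not a binding site.

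In LAD2 the RNA helicases were higher in coculture than alone, STING was slightly lower, and MAVS and cGAS did not pass the test. Of the 8 members, 6 could be tested in LAD2, and 3 were higher and 1 lower by edgeR's quasi-likelihood test with Benjamini-Hochberg (BH) adjustment at 0.05. Over all 15821 genes tested in LAD2, 20.8% were called, 14.1% higher and 6.75% lower. The median log2 fold change of the 6 members was 0.40, against 0.001 over all genes tested. The LAD2 coculture library is single, so its test assumes that it varies like the libraries of LAD2 alone.

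DDX58, which encodes RIG-I (ENSG00000107201, GRCh38 chromosome 9, 32455705 to 32526324, minus strand), had 66.9 CPM in LAD2 coculture, against 38.9, 41.7 and 40.6 CPM in the libraries of LAD2 alone. The coculture value lay far above the 3 values alone, which stayed close together. The rise was 0.72 on the log2 scale, or 1.64-fold (95% interval 0.57 to 0.87, SE 0.0738, edgeR adjusted p = 1.31e-10).

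IFIH1, which encodes MDA5, the helicase for long double-stranded RNA (ENSG00000115267, chromosome 2, 162267079 to 162318703, minus strand), had 70.7 CPM in LAD2 coculture, against 44.1, 46.6 and 47.2 CPM in LAD2 alone. Here too the coculture library stood above every library alone. The rise was 0.61 on the log2 scale, or 1.53-fold (SE 0.0728, edgeR adjusted p = 5.47e-09).

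DHX58, which encodes LGP2 (ENSG00000108771, chromosome 17, 42101404 to 42112733, minus strand), had 39.2 CPM in LAD2 coculture, against 25.7, 27.8 and 24.0 CPM in LAD2 alone. The groups did not overlap. The rise was 0.59 on the log2 scale, or 1.51-fold (SE 0.087, edgeR adjusted p = 5.85e-07). The 3 helicases rose by near equal factors, between 1.51-fold and 1.64-fold, and their proportions to each other stayed near those alone. LGP2 made up 31.8% of the TPM sum of the 3 helicases (a level scaled to exon length) in LAD2 coculture, inside the 30.9% to 34.0% seen in LAD2 alone, and RIG-I 32.6%, above its 30.5% to 31.4% in LAD2 alone.

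MAVS, the adaptor through which the helicases signal (ENSG00000088888, chromosome 20, 3846799 to 3876123, plus strand), had 180.9 CPM in LAD2 coculture, against 191.2, 197.3 and 179.5 CPM in LAD2 alone. The coculture value fell inside the range of LAD2 alone, and the log2 fold change of -0.07 had a 95% interval of -0.21 to 0.06 (edgeR adjusted p = 0.497). The interval excludes a change of the size of the helicases. The helicases summed to 3.07 times the MAVS level in LAD2 coculture, on the TPM scale (transcripts per 1e6 transcripts), against 1.80 to 1.95 times in LAD2 alone.

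TMEM173, which encodes STING (ENSG00000184584, chromosome 5, 139475534 to 139482935, minus strand), had 141.4 CPM in LAD2 coculture, against 171.6, 171.1 and 163.9 CPM in LAD2 alone. The coculture value was below all 3 values alone. STING fell to 0.832 of its level alone (log2 fold change -0.27, SE 0.0656, edgeR adjusted p = 0.00205). The call was lost when the HT-29 share was subtracted from the counts (-0.18, adjusted p = 0.0683) and in 1 fit over all libraries (-0.09, adjusted p = 0.174), a fit in which the median of all genes moved to 0.18.

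MB21D1, which encodes cGAS (ENSG00000164430, chromosome 6, 73413515 to 73452276, minus strand), had 14.0 CPM in LAD2 coculture, against 11.3, 11.4 and 13.6 CPM in LAD2 alone. The coculture value was just above the highest library alone. The log2 fold change of 0.20 had an interval of -0.05 to 0.45 and did not pass (edgeR adjusted p = 0.296), though it did without replicate 3 of LAD2 alone (0.30, adjusted p = 0.0414) and in the fit over all libraries (0.37, adjusted p = 0.00526). cGAS is the one member above 1 CPM with a higher level in HT-29 than in LAD2, and the exons of its gene overlap those of DDX43 on the opposite strand, which had 0 counts in all 10 libraries. The ratio of STING to cGAS on the TPM scale was 21.1 in LAD2 coculture, against 31.7, 31.2 and 25.1 in LAD2 alone.

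**Figure D1:**
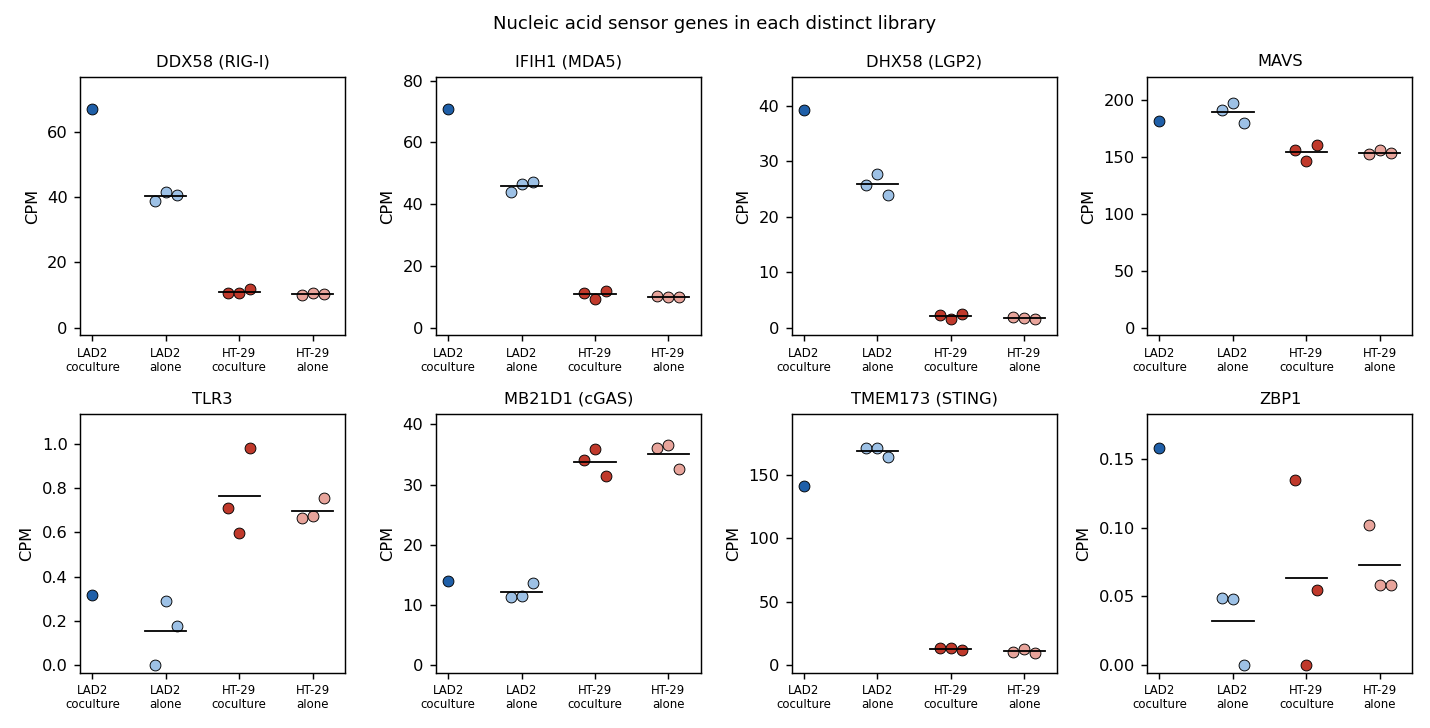
Level of each of the 8 genes in CPM (vertical axis, 1 scale per gene) in every distinct library; each point is 1 library and each line is the mean of 3 libraries. LAD2 coculture stands above LAD2 alone for DDX58 (66.9 against 38.9 to 41.7 CPM), IFIH1 and DHX58 and below it for TMEM173, while the HT-29 groups lie close together, and TLR3 and ZBP1 stay under 1 CPM.

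In HT-29, 0 of the 7 members tested were called in coculture by edgeR's quasi-likelihood test, and 0 by DESeq2, against 8.76% of the 14070 genes tested (5.83% higher and 2.94% lower). The unadjusted p of the edgeR test was under 0.05 for 1 member, TMEM173. The median log2 fold change of the 7 members was 0.09, against 0.001 over all genes tested. The widths of the intervals show what the HT-29 libraries could resolve.

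DDX58 had 10.7, 10.7 and 11.8 CPM in HT-29 coculture, against 10.1, 10.6 and 10.4 CPM in HT-29 alone. The groups did not overlap, but they came within a fraction of 1 CPM of each other. The log2 fold change was 0.07 with an interval of -0.09 to 0.23 (edgeR adjusted p = 0.702). That interval ends below the LAD2 interval for the same gene.

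IFIH1 had 11.4, 9.46 and 11.8 CPM in HT-29 coculture, against 10.3, 9.90 and 9.92 CPM in HT-29 alone. Replicate 2 of the coculture was the lowest of all 6 libraries, so the groups overlapped. The log2 fold change was 0.10 with an interval of -0.07 to 0.27 (edgeR adjusted p = 0.562).

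DHX58 had 2.30, 1.53 and 2.56 CPM in HT-29 coculture, against 1.94, 1.67 and 1.63 CPM in HT-29 alone. It was the scarcest helicase in HT-29, and its coculture libraries scattered around those alone. The log2 fold change of 0.27 had an interval of -0.12 to 0.66 (edgeR adjusted p = 0.48), which still holds the LAD2 value of 0.59.

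MAVS had 156.1, 146.6 and 160.2 CPM in HT-29 coculture, against 152.0, 156.2 and 152.9 CPM in HT-29 alone. The ranges overlapped, and its interval was the narrowest of the members, -0.07 to 0.04 around a log2 fold change of -0.01 (edgeR adjusted p = 0.866). MB21D1 had 34.1, 35.9 and 31.5 CPM in HT-29 coculture, against 36.1, 36.6 and 32.6 CPM in HT-29 alone, again with overlapping ranges (log2 fold change -0.07, interval -0.17 to 0.03, edgeR adjusted p = 0.468).

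TMEM173 had 13.4, 13.6 and 11.5 CPM in HT-29 coculture, against 10.4, 12.7 and 9.81 CPM in HT-29 alone. The groups overlapped between the lowest coculture library and the highest library alone. The log2 fold change of 0.18 had an interval of 0.01 to 0.35 (unadjusted p = 0.0366, edgeR adjusted p = 0.207). Replicate 2 of HT-29 alone decided the call: without it the value was 0.34 with an adjusted p of 0.02. After the LAD2 share was subtracted the value was -0.02.

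**Figure D2:**
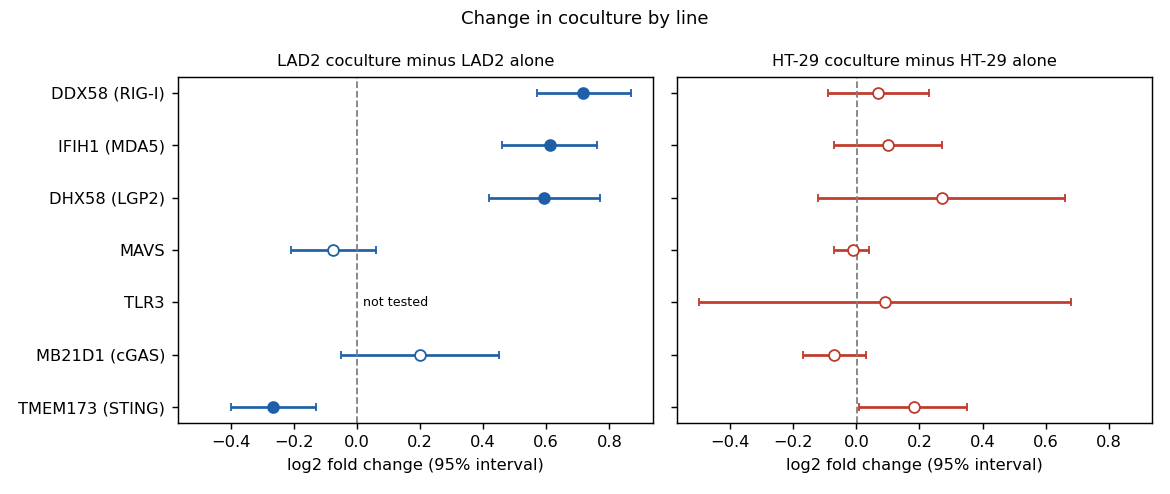
Log2 fold change of coculture over alone (horizontal axis) with its 95% interval for the members that were tested, in LAD2 (left) and HT-29 (right); filled points passed an edgeR adjusted p of 0.05. In LAD2 the 3 helicases lie at 0.59 to 0.72 and TMEM173 at -0.27, and in HT-29 the interval of every member but TMEM173 includes 0 and none passed.

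TLR3 and ZBP1 were near the limit of detection. TLR3 (ENSG00000164342, chromosome 4, 186069152 to 186088069, plus strand) had 8 counts in LAD2 coculture, against 0, 6 and 4 counts in LAD2 alone. The ratio of the groups was 2.02 with a counting interval of 0.691 to 5.67, so no difference was detectable at this depth. In HT-29, TLR3 had 21, 14 and 18 counts in coculture, against 13, 23 and 13 counts alone, a ratio of 1.07 (0.715 to 1.62).
ZBP1 (ENSG00000124256, chromosome 20, 57603846 to 57620576, minus strand) had 4 counts in LAD2 coculture, against 1, 1 and 0 counts in LAD2 alone. Its ratio was 5.04 with a counting interval of 0.722 to 55.7, and it was too low to test in any comparison. In HT-29, ZBP1 had 4, 0 and 1 counts in coculture, against 2, 2 and 1 counts alone.

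The share of RNA from the other line was set beside each member by computing the level expected in a mix of the alone profiles at that share. In LAD2 coculture the observed level of DDX58 was 1.72 times the 38.8 CPM of the mixture, that of IFIH1 was 1.61 times the 44.1 CPM, and that of DHX58 was 1.60 times the 24.6 CPM. HT-29 had less of these genes than LAD2, so the mixture lay below LAD2 alone and the rise was as large against it. For MB21D1 the mixture reached 13.3 CPM, and the observed 14.0 CPM was 1.05 times that level. For TMEM173 the mixture was 160.5 CPM and the observed level was 0.881 of it.

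In HT-29 coculture, 2 members, DHX58 and TMEM173, belong to the genes that are at least 10-fold higher in LAD2. Here the mixture of 12.7 CPM for TMEM173 lay near the observed mean of 12.8 CPM, a ratio of 1.01. The ratio was 1.06 for DHX58, with libraries between 0.764 and 1.26, and 1.04 for both DDX58 and IFIH1. Whether RNA of LAD2 gave the small differences in HT-29 was not tested beyond these values.

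**Figure D3:**
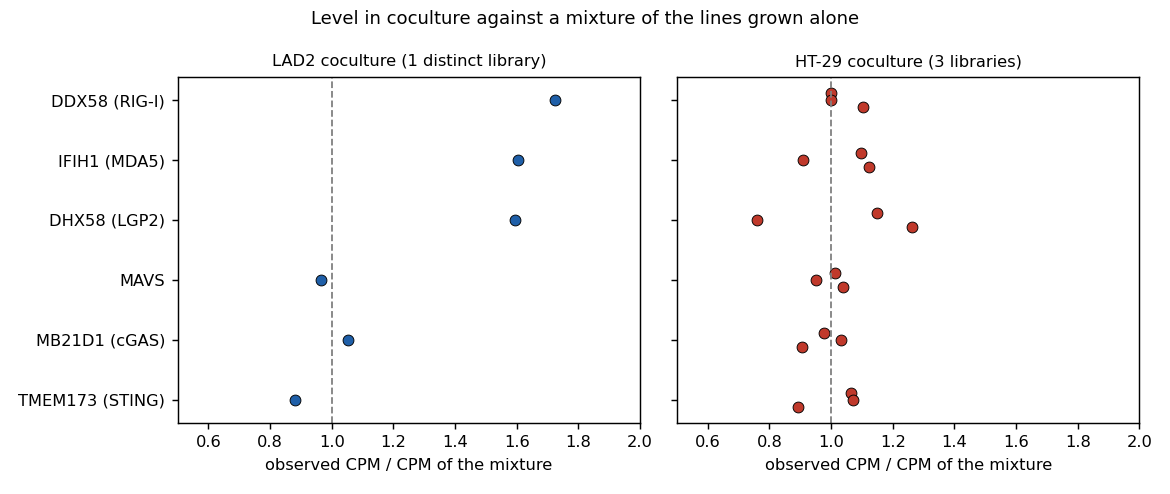
Observed level divided by the level of a mixture of the lines grown alone (horizontal axis, 1 means equal) for the 6 members with ample counts, with 1 point per library in LAD2 coculture (left) and HT-29 coculture (right). The helicases lie at 1.60 to 1.72 in LAD2 coculture, and in HT-29 coculture each member has libraries on both sides of 1 or close to it.

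The difference between the responses, LAD2 minus HT-29, was an interaction term fitted on the 10 libraries. Its scale depended on the normalization. With factors computed over all libraries the median of all 17435 genes tested was 0.172, and 40.8% of them were called, 33.7% higher and 7.11% lower. With factors computed within each line, an alternative added after seeing the data, the median was -0.0067 and 2890 genes were higher and 2077 lower, against 5877 and 1240.

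DDX58 and IFIH1 responded more in LAD2 than in HT-29 under both scalings. The difference was 0.82 for DDX58 over all libraries (SE 0.0997, edgeR adjusted p = 6.38e-10) and 0.64 within lines (adjusted p = 4.83e-07). For IFIH1 it was 0.68 (SE 0.104, edgeR adjusted p = 2.1e-07) and 0.50 within lines (adjusted p = 9.42e-05). Both passed in all 15 other settings, but the size moved: IFIH1 was at 0.40 without replicate 1 of HT-29 alone, 0.43 without replicate 3 of HT-29 alone, 0.45 without replicate 3 of HT-29 coculture and 0.42 with no filter. DDX58 ranged from 0.55 to 0.84. The median of all genes was -0.094, -0.090, -0.103 and -0.117 in the settings named for IFIH1, in that order, against 0.172.

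For STING the difference had the opposite sign. It was -0.27 over all libraries (edgeR adjusted p = 0.0189) and -0.45 within lines (adjusted p = 0.000158), but -0.09 after subtraction of the share of the other line (adjusted p = 0.644). The call was also lost without replicate 1 or replicate 2 of HT-29 coculture (-0.23 and -0.24, adjusted p = 0.0806 and 0.0693). The value was more negative without replicate 3 of HT-29 coculture (-0.62) and without replicate 1, 2 or 3 of HT-29 alone (-0.50, -0.43 and -0.47). These fits differ in scale: the median of all genes was -0.103 without replicate 3 of HT-29 coculture, against 0.172 with all libraries. Without replicate 1, 2 or 3 of HT-29 alone that median was -0.094, 0.174 and -0.090.

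DHX58 and cGAS were called with factors over all libraries but not with factors within lines. The difference was 0.49 for DHX58 (edgeR adjusted p = 0.0445) but 0.31 within lines (adjusted p = 0.278), and 0.44 for MB21D1 (adjusted p = 0.00322) but 0.26 within lines (adjusted p = 0.117). DHX58 lost its call in 9 of 15 other settings and MB21D1 in 8, both of them without replicate 3 of HT-29 coculture (0.32 and 0.11) and without replicate 1 (0.16 for each) or 3 (0.26 and 0.22) of HT-29 alone. DHX58 also lost it without replicate 2 of either HT-29 group (0.32 without that of coculture and 0.55 without that of HT-29 alone). After subtraction of the share of the other line MB21D1 lost its call (0.21, edgeR adjusted p = 0.346), while DHX58 kept it (0.67, edgeR adjusted p = 0.028). Without replicate 3 of HT-29 coculture the median of all genes was -0.103, against 0.172. Without replicate 1 or 3 of HT-29 alone that median was -0.094 or -0.090. For MAVS the difference of 0.11 did not pass (edgeR adjusted p = 0.147) and changed sign within lines, at -0.07. For TLR3 it was 1.06 with an interval of -0.64 to 2.75 (edgeR adjusted p = 0.343).

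The lines differed far more from each other than either did from its own coculture. Between LAD2 alone and HT-29 alone all 7 tested members were called, 5 higher and 2 lower in LAD2, by edgeR with BH adjustment. This comparison called 92.4% of 15830 genes, 47.5% higher and 44.9% lower, so the calls themselves say little, and the sizes carry the information. STING was 14.8-fold higher in LAD2 alone, with 168.8 ± 4.30 CPM in LAD2 alone and 11.0 ± 1.53 CPM in HT-29 alone (SD, n = 3 each; edgeR adjusted p = 8.63e-42). LGP2 was 14.7-fold higher (25.8 ± 1.90 CPM in LAD2 alone and 1.75 ± 0.172 CPM in HT-29 alone; edgeR adjusted p = 2.58e-31).

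The helicases that signal differed less. MDA5 was 4.55-fold higher (45.9 ± 1.65 CPM in LAD2 alone and 10.0 ± 0.211 CPM in HT-29 alone; edgeR adjusted p = 1.3e-30) and RIG-I was 3.85-fold higher (40.4 ± 1.44 CPM in LAD2 alone and 10.4 ± 0.261 CPM in HT-29 alone; edgeR adjusted p = 1.61e-28). MAVS was 1.22-fold higher (189.3 ± 9.01 CPM in LAD2 alone and 153.7 ± 2.20 CPM in HT-29 alone; edgeR adjusted p = 3.98e-09). The adaptor of the RNA branch was thus the member whose level differed least between the lines.

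The 2 members lower in LAD2 were the DNA sensor and the endosomal receptor. cGAS was at 0.341 of its HT-29 level (12.1 ± 1.3 CPM in LAD2 alone and 35.1 ± 2.21 CPM in HT-29 alone; edgeR adjusted p = 2.45e-23). TLR3 had 10 counts over the libraries of LAD2 alone and 49 counts over those of HT-29 alone, a ratio of 0.227 (counting interval 0.102 to 0.453). The enzyme and the adaptor of the DNA branch thus stood in opposite order in the lines, with a ratio of STING to cGAS on the TPM scale of 25.1 to 31.7 in LAD2 alone and 0.601 to 0.724 in HT-29 alone.

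Levels of different genes were compared per length, in TPM. In LAD2 alone the order was TMEM173 at 258.1, MAVS at 43.5, IFIH1 at 29.5, DHX58 at 26.7, DDX58 at 25.1 and MB21D1 at 8.86 TPM, with the ranges of IFIH1 and DHX58, and of DHX58 and DDX58, overlapping. In LAD2 coculture IFIH1, at 45.8 TPM, came second after TMEM173 at 218.1, and MAVS at 42.0, DDX58 at 41.9 and DHX58 at 40.9 lay close together in this single library. MAVS is counted over 11771 bases of exon, the longest of the members, so its TPM depends on how much of that length the cells transcribe.

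In HT-29 alone the order was MAVS at 35.3, MB21D1 at 25.7, TMEM173 at 16.8, IFIH1 and DDX58 both at 6.44 with overlapping ranges, DHX58 at 1.80, TLR3 at 0.303 and ZBP1 at 0.0767 TPM. HT-29 coculture kept that order. The DNA branch thus outranked the RNA helicases in HT-29, and the helicases summed to 0.425 to 0.476 of the MAVS level in HT-29 coculture and 0.408 to 0.425 of it in HT-29 alone.

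**Figure D4:**
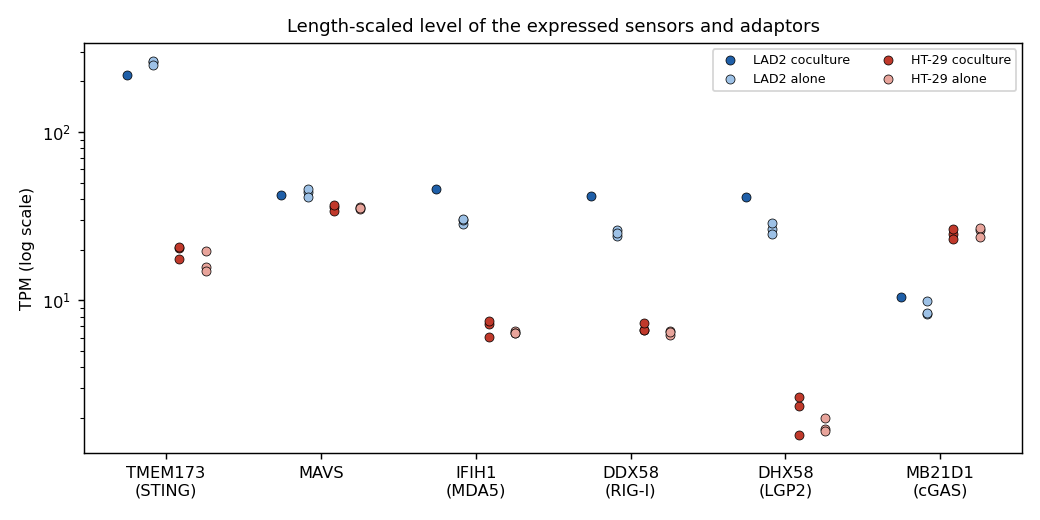
Length-scaled level in TPM (vertical axis, log scale) of the 6 members with ample counts; each point is 1 distinct library, coloured by group. TMEM173 has 218.1 and 258.1 TPM in LAD2 coculture and LAD2 alone against 19.6 and 16.8 TPM in HT-29 coculture and HT-29 alone (means), DHX58 has 40.9 and 26.7 against 2.20 and 1.80 TPM in the same groups, MB21D1 is the one gene with higher levels in HT-29, and MAVS lies between 33.7 and 45.6 TPM in every library.

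Genes that act on or with the sensors were read from 7 lists chosen by known role. In LAD2 the list of other nucleic acid sensors held the most calls: 11 of 26 tested members were higher and 0 lower, with a median log2 fold change of 0.15, where 14.1% of all genes were higher. They included OAS2, an oligoadenylate synthetase that binds double-stranded RNA (60.2 CPM in LAD2 coculture and 15.9 ± 2.52 CPM in LAD2 alone, log2 fold change 1.91), IFIT1, which binds foreign RNA ends (207.8 CPM in LAD2 coculture and 66.5 ± 3.83 CPM in LAD2 alone, 1.63), OAS1 (1.45) and the kinase EIF2AK2, also called PKR (134.2 CPM in LAD2 coculture and 56.5 ± 2.93 CPM in LAD2 alone, 1.24). These are interferon-stimulated genes in textbooks, as are the helicases. Their edgeR adjusted p-values were between 1.31e-23 and 5.37e-19. The observed level over the mixture was 3.96 for OAS2, 3.28 for IFIT1, 2.8 for OAS1 and 2.27 for EIF2AK2. Other genes of the list had more RNA in HT-29 alone, such as DDX21 (538.3 CPM there, 132.0 CPM in LAD2 coculture and 104.6 CPM in LAD2 alone). Whether HT-29 RNA gave any of the remaining calls was not tested. TLR8, TLR9 and AIM2 had 0 counts in all groups.

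Of 22 regulators of RIG-I-like receptors, 3 were higher and 1 lower in LAD2, with a median of -0.01, a share of calls close to the 20.8% over all genes. TRIM14, an adaptor that joins MAVS complexes, had 76.8 CPM in LAD2 coculture and 34.4 ± 1.69 CPM in LAD2 alone (log2 fold change 1.15, edgeR adjusted p = 1.08e-16), and TRIM25, the ubiquitin ligase known to activate RIG-I, had 300.0 CPM in LAD2 coculture and 224.3 ± 5.52 CPM in LAD2 alone (0.41, edgeR adjusted p = 9.88e-07). RNF125, a ligase that marks RIG-I for degradation, had 61.9 CPM in LAD2 coculture and 73.7 ± 2.10 CPM in LAD2 alone (-0.26, edgeR adjusted p = 0.00658). The fourth was the chaperone gene HSP90AA1, at 0.19, whose 1197.4 CPM in LAD2 coculture were 1.06 times the mixture of 1125.9 CPM, against 1043.5 ± 57.4 CPM in LAD2 alone. The other 18 regulators did not pass.

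Of 24 downstream adaptors, kinases and factors, 3 were higher and 1 lower in LAD2, with a median of 0.00, again a share of calls near the 20.8% over all genes. IRF7, an interferon regulatory factor that is itself interferon-stimulated, had 81.9 CPM in LAD2 coculture and 40.1 ± 1.07 CPM in LAD2 alone (log2 fold change 1.02, edgeR adjusted p = 1.69e-15), and the others called were NFKBIA (0.28), JUN (0.20) and IKBKB (-0.21). TBK1 and IKBKE, kinases that the branches share, and IRF3, which they activate, did not pass (log2 fold changes 0.01, 0.11 and -0.09, chosen after their values were seen). Of 20 tested genes of nucleic acid removal and editing, 2 were higher and 0 lower: ADAR, which edits double-stranded RNA, had 519.9 CPM in LAD2 coculture and 361.6 ± 7.91 CPM in LAD2 alone (0.51), and PNPT1, which degrades RNA in mitochondria, was at 0.35. PNPT1 had 32.7 CPM in LAD2 coculture, 25.5 ± 1.49 CPM in LAD2 alone and 114.3 CPM in HT-29 alone, and the observed level was 1.09 times the mixture of 30.1 CPM.

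Of 23 tested regulators of the cGAS and STING branch, 4 were higher and 2 lower in LAD2, with a median of 0.04, where 20.8% of all genes were called. INSIG1, a sterol-regulated protein that also joins a ligase acting on STING, fell to 447.5 CPM in LAD2 coculture, against 860.6 ± 35.5 CPM in LAD2 alone (log2 fold change -0.95, edgeR adjusted p = 3.96e-15). In HT-29 it was higher, with 153.8 ± 4.92 CPM in HT-29 coculture and 118.6 ± 1.38 CPM in HT-29 alone (0.36, edgeR adjusted p = 8.34e-15). The HT-29 coculture level of INSIG1 was 1.21 times its mixture of 126.8 CPM. USP18, which dampens interferon signalling, had 39.1 CPM in LAD2 coculture and 21.0 ± 1.60 CPM in LAD2 alone (0.88). SLC19A1, a carrier that imports cyclic dinucleotides, had 3.63 CPM in LAD2 coculture and 0.659 ± 0.063 CPM in LAD2 alone. It had 65.1 CPM in HT-29 alone, and the mixture of the lines reached 4.05 CPM, above the observed level.

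Of 11 partners of ZBP1 in cell death, 1 was higher in LAD2, PGAM5 (0.42), with a median of 0.05. Over all genes tested in LAD2, 14.1% were higher and 20.8% were called in either direction. PGAM5 had 55.6 CPM in LAD2 coculture and 41.3 ± 1.11 CPM in LAD2 alone, but 179.7 CPM in HT-29 alone, and the observed level was 1.14 times the mixture of 48.6 CPM. Of the 15 interferons and target chemokines, 3 were abundant enough to test in LAD2 and 1 passed: the chemokine CXCL10 had 0.985 CPM in LAD2 coculture and 0.360 ± 0.0705 CPM in LAD2 alone (log2 fold change 1.43, edgeR adjusted p = 0.0365). IFNB1, the gene of interferon beta, had 5 counts in LAD2 coculture and 12 counts over the libraries of LAD2 alone, and 1 count each over the libraries of HT-29 coculture and of HT-29 alone. IFNA1, IFNK, IFNL2 and IFNG were at 0 in all groups.

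In HT-29 the same lists held 0 to 3 calls each, where 8.76% of all genes were called, and some of the genes called are at high levels in LAD2. The list of other sensors had 2 higher and 1 lower of 25 tested, with a median of -0.01. IFI16, a DNA sensor, had 6.72 ± 0.667 CPM in HT-29 coculture and 0.151 ± 0.042 CPM in HT-29 alone, but 559.2 CPM in LAD2 alone, and the observed level was 1.06 times the mixture of 6.34 CPM. APOBEC3C, a cytidine deaminase, was likewise 1.05 times its mixture of 2.68 CPM. IFIT1 had 8.29 ± 1.81 CPM in HT-29 coculture and 5.22 ± 0.347 CPM in HT-29 alone (log2 fold change 0.61, edgeR adjusted p = 0.000139), at 1.40 times its mixture. With the LAD2 coculture profile, in which IFIT1 is at 207.8 CPM, in place of LAD2 alone, that mixture was 7.47 CPM and the ratio 1.11.

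IRF7 had 32.0 ± 2.10 CPM in HT-29 coculture and 27.0 ± 1.78 CPM in HT-29 alone (log2 fold change 0.21, edgeR adjusted p = 0.00363), at 1.18 times its mixture. The lower calls were small, with JUN at -0.17, LRRC8A at -0.11, DDX21 at -0.07 and TOMM70 at -0.07. None of the 10 tested partners of ZBP1 and 0 of the 1 tested chemokine or interferon were called in HT-29 by edgeR.

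**Figure D5:**
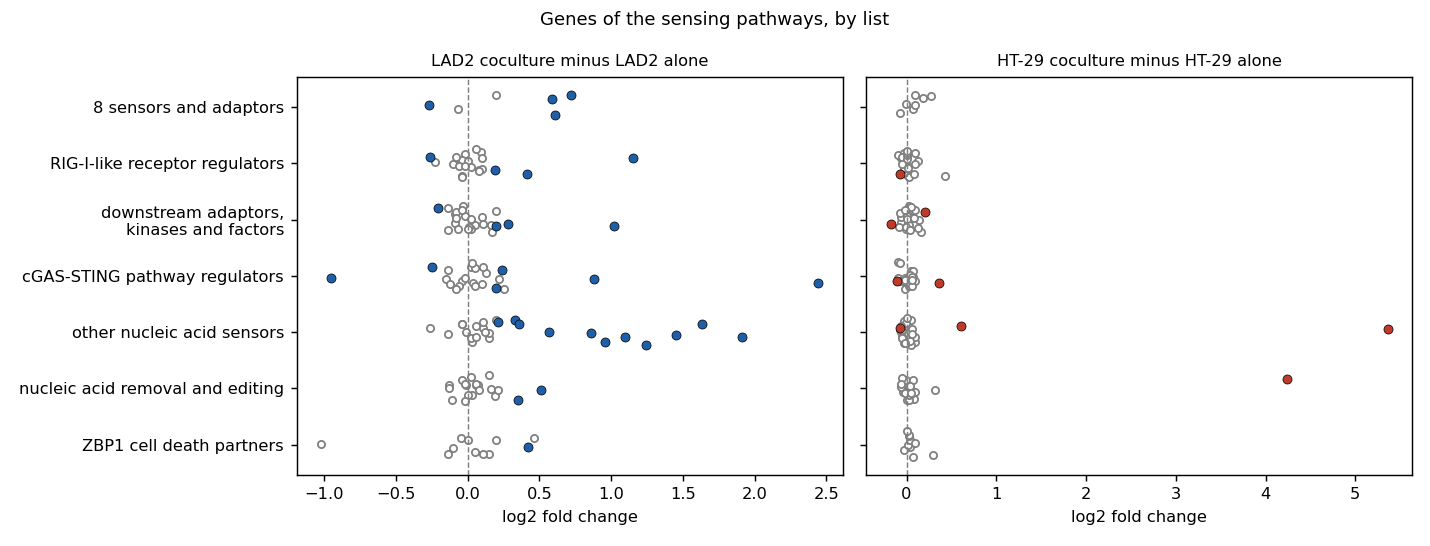
Log2 fold change of coculture over alone (horizontal axis, with a wider range for HT-29) of every tested gene in the 8 sensors and adaptors and in 6 lists around them, in LAD2 (left) and HT-29 (right); filled points passed an edgeR adjusted p of 0.05. In LAD2 the other nucleic acid sensors reach 1.91 and the largest value overall is SLC19A1 at 2.44; in HT-29 the values beyond 4 are IFI16 and APOBEC3C, which LAD2 expresses strongly.

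The genes whose pattern over the 10 libraries was most like that of each member were found by the root mean square (RMS) difference of centred log2(CPM + 0.5), among 12719 protein-coding genes. MAVS had the closest matches, VPS52 (RMS 0.023) and KIF18B (0.029), and its levels differed little between the groups. MB21D1 was closest to CEBPZ (0.05) and ACTL6A (0.058), which were also higher in HT-29, and TMEM173 to TOMM40L (0.074) and ARMH4 (0.099). DHX58 had the most distant nearest genes, AHNAK2 (0.156) and BTG2 (0.158). DDX58 was closest to NSG2 (0.087) and ACKR2 (0.109) and IFIH1 to SPACA3 and NPTX1 (both 0.114), but these 4 genes, like ARMH4, were near 0 in HT-29, where the added 0.5 sets their value.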

How the data were processed

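The authors deposited 1 table of raw read counts per gene without normalization, with 58721 genes and 12 columns. Per the submitters' processing notes, the tools were STAR 2.7.10a, FastQC 0.11.9 and DESeq2 3.24.0, on the build hg38; of the counting program, its annotation and the strand setting, the sources used here say nothing. Gene identifiers held no dot before the version, so their first 15 characters were matched to GENCODE release 29, where all 58721 were found; MB21D1 is listed there as CGAS. The 8 members, the other lists and the tests were chosen with earlier results of these data known, and the lists are not independent evidence of a direction.

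Each contrast was fitted on all genes in edgeR 4.0.16 (R 4.3.3) with filterByExpr, TMM factors, quasi-likelihood F tests (two-sided) and BH adjustment over all genes tested, and called at an adjusted p under 0.05. The fitted biological variation (BCV) was 4.03% for the LAD2 libraries and 1.70% for those of HT-29; the interaction used 1 spread for both lines, to which HT-29 gave most replicates. The fits were tested on simulated data. All simulated libraries shared the same spread, so the simulation could not check the assumption made for the single LAD2 coculture library. DESeq2 1.42.0, RLE factors, no filter, left-out replicates, a replicate block, 1 fit over all libraries and subtraction were the alternatives; 2 more were added after seeing the data. CPM and TPM (union of exons) were computed here. The share of RNA of the other line is the median, over genes at 50 CPM or more in that line and 0.5 CPM or less in the line itself, of the gain over the line alone as a percentage of what the other line has. Named genes of each list were up to 4 called members with the smallest p in LAD2 and up to 3 in HT-29.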

Additional observations from a re-analysis of the deposited data

Results flagged for a closer look

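The response to coculture differed between LAD2 and HT-29, by a test of the difference itself, for 5 members when 1 set of normalization factors covered all libraries. The differences, LAD2 minus HT-29 on the log2 scale, were 0.82 for DDX58, 0.68 for IFIH1, 0.49 for DHX58, 0.44 for MB21D1 and -0.27 for TMEM173. The median of all genes was 0.172 on this scale, and 40.8% of the 17435 genes tested were called, 33.7% higher and 7.11% lower. The differences of DHX58 and MB21D1 did not pass when factors were computed within each line. Those of MB21D1 and TMEM173 did not pass after subtraction of the share of the other line (0.21 and -0.09). The LAD2 side rests on 1 coculture library.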

How the results depend on the processing

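Of 321 recomputed values of members over the alternatives, 282 kept their direction and side of the threshold, 22 lost a call, 3 gained one and 14 changed sign. The LAD2 calls of DDX58, IFIH1 and DHX58 and the 7 calls between the lines alone held in every alternative run. Whether the replicate numbers of the labels pair the HT-29 samples was not settled. Same-numbered samples had weak correlations of deviations, 0.07, 0.04 and 0.10, though each correlated best with its own number. The BCV was 1.38% with a replicate block and 1.7% without it. With the replicate block 876 genes were higher and 522 lower in HT-29, against 820 and 413, with 0 members called (TMEM173 0.20, adjusted p = 0.0879).

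In HT-29, DESeq2 called 177 genes lower, 1 fit over all libraries 151, subtraction 236 higher and 196 lower, and subtraction with the LAD2 coculture profile 215 and 193. Leaving out 1 library gave 656 to 855 genes higher, 269 to 415 lower and 0 to 1 members higher (TMEM173, without replicate 2 of HT-29 alone). MAVS changed sign there without replicate 2 of HT-29 alone (0.001) or of HT-29 coculture (0.022), within a range of -0.035 to 0.022 over the left-out libraries, TLR3 without replicate 3 of HT-29 coculture (-0.08, range -0.08 to 0.224), TMEM173 with subtraction (-0.02), and DDX58 (-0.015) and DHX58 (-0.051) with the LAD2 coculture profile.

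In LAD2, DESeq2 called 1395 genes higher and 403 lower, against 2230 and 1068, 1 fit over all libraries 6998 and 446, and subtraction 902 and 681, the last 2 with 0 members lower. Leaving out 1 library gave 1825 to 2773 higher, 674 to 1674 lower, 3 to 4 members higher and 1 lower. MAVS became 0.098 in 1 fit over all libraries.

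For the difference between the responses, RLE factors called 3343 genes higher, DESeq2 2814, no filter 1744 and 2109 lower, subtraction 1997 and 611, and factors within lines 2890 and 2077. Members called higher were 2 with RLE, DESeq2, no filter or factors within lines, and members lower were 0 with subtraction. Leaving out 1 library gave 1954 to 6359 genes higher, 1065 to 2962 lower, 2 to 4 members higher and 0 to 1 lower. MAVS changed sign with RLE (-0.03), DESeq2 (-0.027), no filter (-0.162), factors within lines (-0.071), and without replicate 3 of HT-29 coculture (-0.153) or replicate 1 (-0.155) or 3 (-0.151) of HT-29 alone, within a range of -0.155 to 0.133 over the left-out libraries. The median of all genes, 0.172 in the main fit, was also below 0 in several of these settings. It was -0.117 with no filter and -0.103 without replicate 3 of HT-29 coculture. Without replicate 1 or 3 of HT-29 alone it was -0.094 or -0.090. The cause was not tested. The HT-29 share in LAD2 coculture was 5.10% with stricter genes and 5.28% with coculture levels.

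ZBP1 in both lines and TLR3 in LAD2 had too few counts for a modest change in coculture to be detectable. For TLR3 in HT-29 the counting interval of the ratio was 0.715 to 1.62. The single LAD2 coculture library carries every LAD2 result.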
